A study of Mus musculus with 24 samples.

Results

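The comparison is of fumonisin B1 with water in the livers of mice that lack both liver X receptors, LXRα and LXRβ, and it covers 12 of the 24 arrays of the study, chosen by their titles. All mice were females of a sv129/C57 background, 8 weeks old. The 6 KO FB1 mice received fumonisin B1 (FB1) at 10 mg/kg of body weight per day for 1 month, and the 6 KO control mice received water. Every mouse of both groups carries the double receptor loss, so the comparison shows FB1 on that background. The 6 wild-type (WT) mice with water and 6 with FB1 enter the shared fit, the choice of probes and the tests of a difference between genotypes. Some WT values are also given beside KO values without a test. The labels do not say how the receptor genes were deleted. Total liver RNA of each mouse was read on its own 1-colour Agilent array. All 56605 non-control probes were considered, and 33417 of them, for 22088 genes, were tested.

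FB1 is a mould toxin of maize that blocks ceramide synthases, which acylate sphingoid bases in the making of ceramide. The liver X receptors, encoded by Nr1h3 and Nr1h2, are nuclear receptors for oxysterols that control cholesterol export and lipid synthesis. Adult hepatocytes secrete most plasma proteins, clear ammonia and amino acids, and detoxify foreign compounds, with tasks divided between the portal and the central end of the lobule. After injury the surviving hepatocytes can divide again, and in damaged or regenerating liver they can lose adult genes and regain genes of fetal liver, bile duct or mesenchymal cells.

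Signals are given as log2 of the processed intensity minus the array's own 75th percentile, so that a value of 1 is a signal of 2-fold that percentile. Differences are KO FB1 minus KO control on the log2 scale with the standard error (±) of a limma fit in which all 24 arrays share 1 spread per gene. Adjusted p-values are Benjamini-Hochberg values over all 22088 genes, and a gene is called at adjusted p under 0.05. The labels give each mouse as a replicate of its group and say nothing of litter or cage. On each array 58.7% to 64.5% of spots were well above background, and arrays of the same KO group correlated at 0.988 to 0.994. The labels were borne out by the deleted genes. Nr1h3 read -5.13 to -3.98 in KO controls and -5.12 to -2.56 in KO FB1 mice against 4.76 to 5.06 in WT controls, and Nr1h2 read 0.34 to 0.72 and 0.31 to 0.80 against 4.07 to 4.34. FB1 left the probes of both deleted genes without a call, at 0.18 ± 0.29 for Nr1h3 (adjusted p = 0.657) and -0.026 ± 0.08 for Nr1h2 (adjusted p = 0.808). The tissue was read as liver, since the summed signal of 15 hepatocyte markers was 4174 to 4925 times the 75th percentile in KO controls and 3280 to 4633 times in KO FB1 mice, and each of the 15 was measured.

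FB1 changed a large part of the transcriptome in these livers. Of 22088 genes 41.2% were called, against 2.89% for FB1 in WT mice. In KO 3654 (16.5%) were called higher and 5443 (24.6%) lower. Of the calls of at least 4-fold, 239 (1.08% of all genes) were rises and 70 (0.317%) falls. This balance depends on level, since a gene dim in KO controls has little room to fall 4-fold. Such a gene could also enter the test through another group in which it was brighter. Genes were split into 10 equal bins by their signal in KO controls. The lowest bin held 117 of these rises and 5 of these falls. The highest held 0 of the rises and 11 of the falls. In that highest bin 4.44% of genes were called higher and 51.5% lower. The bins use the control arm of the same comparison, so these shares are only a description, and they change with the scaling between arrays. In that bin 27.3% were lower and 17.2% higher after quantile normalisation, and 20.5% lower and 23.8% higher with the authors' own values. The median of all genes was -0.075 in the main values and -0.030 with the authors' values, and the share of higher genes among those called was 40.2% in the main values, 45.2% after quantile normalisation and 49.0% with the authors' values. Gene lists are therefore described by how many members passed the test, by their median, and by whether the count changes with the scaling. Every list count is to be read beside the 16.5% of all genes called higher and 24.6% called lower. Lists were not compared with other genes of like signal.

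**Figure D1:**
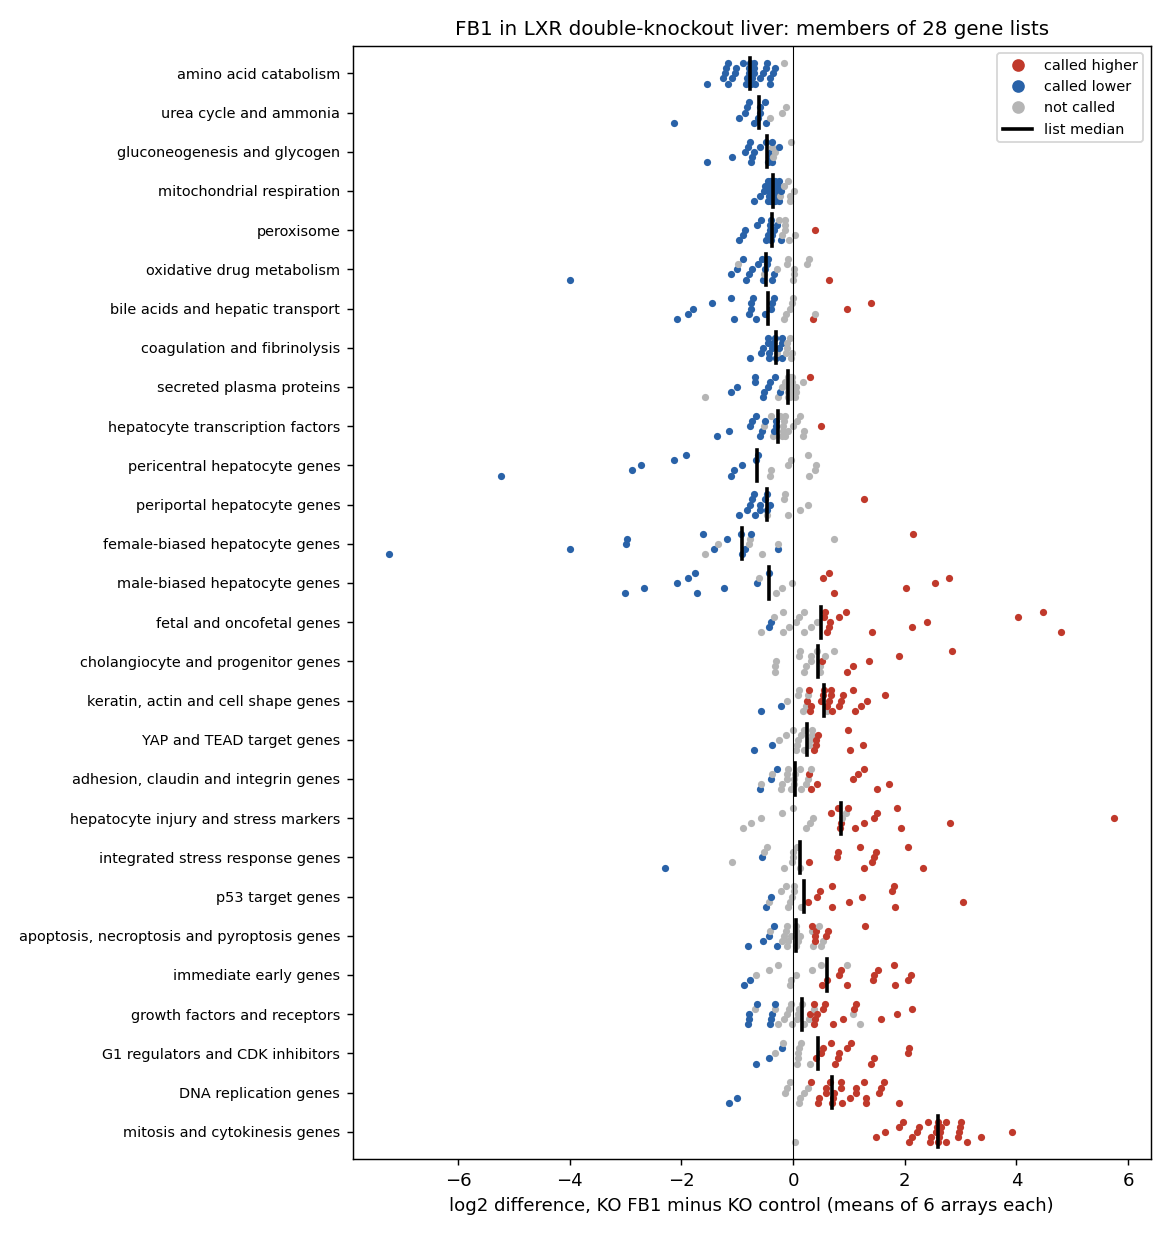
Log2 difference between KO FB1 and KO control for each tested member of 28 gene lists, 1 point per gene, coloured by the limma call, with a bar at each list's median. Lists of adult hepatocyte function lie to the left of 0, down to a median of -0.92 for female-biased genes, and cell division lies farthest to the right, at 2.59 for mitosis.

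Enzymes that break down amino acids fell almost as a block. Of 30 tested genes of amino acid catabolism, 29 were called lower and 0 higher, with a median of -0.77, against 24.6% of all genes called lower and a median of -0.075. The count was 28 to 30 with any 1 KO array left out, and 22 with the authors' values. Within slides 1, 2 and 3, each of which holds 2 mice of every group, the median was -0.86, -0.45 and -0.95. In bulk tissue, fewer hepatocytes and less of an RNA per hepatocyte cannot be told apart. For 18 of the 30 genes of this list the KO FB1 mice all lay below all KO controls, against 9.48% of all genes.

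Got1, the cytosolic aspartate aminotransferase that leaks into serum from damaged hepatocytes, had signals of 6.07, 6.58 and 6.87 (lowest, median and highest) in KO controls and 4.43, 4.85 and 5.95 in KO FB1 mice. The groups did not overlap, and the highest KO FB1 mouse was replicate 3. Got1 fell 2.92-fold (-1.55 ± 0.22, adjusted p = 1.2e-05). Prodh, the first enzyme of proline oxidation, fell by 1.26 ± 0.19. Cth, which makes cysteine from cystathionine, and Tdo2, the first enzyme of tryptophan breakdown, each fell by 1.21 (± 0.20 and ± 0.26). Mat1a, which makes S-adenosylmethionine in adult liver, fell 2.23-fold, from 6.75 to 7.27 in KO controls to 5.35 to 6.49 in KO FB1 mice. The only tested member of the list without a call was Bhmt, at -0.16.

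Ammonia handling fell as well, at both ends of the lobule. Of 14 genes of the urea cycle and ammonia metabolism, 11 were called lower and 0 higher, with a median of -0.61. Cps1, the mitochondrial enzyme that feeds ammonia into the urea cycle, fell 1.78-fold (-0.83 ± 0.14, adjusted p = 9e-05), and its groups overlapped through KO FB1 replicate 3. Car5a, the mitochondrial carbonic anhydrase that supplies it with bicarbonate, fell by 0.86 ± 0.13. Glul, the glutamine synthetase of the cells around the central vein, fell most in this list. Its probe on chromosome 1 at 155756765 to 155756824 (mm9) read 5.71, 5.87 and 5.98 in KO controls and 2.97, 3.76 and 4.66 in KO FB1 mice, without overlap. Glul fell 4.36-fold (-2.13 ± 0.28, adjusted p = 4.69e-06), and its other probes gave -2.18 and -2.53.

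Glucose and glycogen genes followed, with 16 of 20 called lower (11 with the authors' values), 0 higher and a median of -0.46. Ppargc1a, a coactivator of gluconeogenesis and mitochondrial growth, fell 2.13-fold (-1.09 ± 0.29), and Ugp2, which makes UDP-glucose, fell by 0.85 ± 0.14.

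Genes of mitochondrial respiration were lower on these values, by small amounts. Of 33 tested subunits and tricarboxylic acid cycle genes 27 were called lower and 0 higher, with a median of -0.36 and values of -0.69 to 0.02, but 18 were lower after quantile normalisation and 8 with the authors' values. Within slides 1, 2 and 3 the median was -0.45, -0.13 and -0.50. Fh1, the fumarase, fell by 0.69 ± 0.11, Sdhb, a subunit of succinate dehydrogenase, by 0.59 ± 0.08 and the complex I subunit Ndufb5 by 0.52 ± 0.08. These 3 held their calls under the authors' values and after quantile normalisation. Peroxisomal genes showed the same dependence, with 15 of 23 called lower (8 after quantile normalisation, 6 with the authors' values) and 1 higher. Pecr, an enzyme of fatty acid elongation, and the catalase gene Cat fell by 0.98 ± 0.11 and 0.89 ± 0.12, while Agps, an enzyme of ether lipid synthesis, rose by 0.39 ± 0.07.

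Detoxification and transport genes fell in part. In oxidative drug metabolism 15 of 26 genes were lower (9 with the authors' values) and 1 was higher, with a median of -0.48. Maob, which oxidises amines, fell by 0.91 ± 0.08 and the pericentral Cyp1a2 by 1.11 ± 0.18, while the epoxide hydrolase Ephx1 rose by 0.64 ± 0.10. Among 24 genes of bile acid synthesis and hepatic transport 15 were lower and 3 higher. Cyp7b1, of the acidic bile acid pathway, fell 4.25-fold (-2.09 ± 0.19), and Abcg5 and Abcg8, the paired subunits of the canalicular sterol pump, fell 2.75-fold and 3.46-fold. Slco1b2, a bile acid and drug carrier of the sinusoidal membrane, fell by 0.79 ± 0.12. Abcc4, an efflux pump of the basolateral membrane, rose by 0.97 ± 0.23. Its KO control median of -1.94 lay below the WT control median of -0.54, and KO FB1 mice had a median of -0.89.

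Of the hepatocyte function lists, secreted plasma proteins had the median closest to 0. Of 30 plasma protein genes 10 were called lower (6 with the authors' values) and 1 higher, with a median of -0.095. Of all genes 24.6% were called lower and 16.5% higher. Alb, the albumin gene, read 9.43, 9.57 and 9.82 in KO controls and 9.25, 9.62 and 9.76 in KO FB1 mice. These ranges overlap almost whole, and the difference was -0.043 ± 0.08 (adjusted p = 0.712). The transthyretin gene Ttr was at -0.09 ± 0.07 and Apoa1, of high-density lipoprotein, at 0.17 ± 0.12, both without a call. Serpina6, the corticosteroid-binding globulin, fell 2.01-fold (-1.01 ± 0.19). The haem carrier Hpx was called higher at 0.30 ± 0.11 (adjusted p = 0.0399), a call lost when any of 7 single arrays was left out. Of 22 coagulation genes 15 were lower and 0 higher, with a median of -0.30, but 6 after quantile normalisation and 4 with the authors' values. F7, coagulation factor VII, fell by 0.77 ± 0.08 and plasminogen, Plg, by 0.53 ± 0.11.

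Transcription factors that hold the hepatocyte programme were lower in part. Of 28 tested, 11 were called lower (9 after quantile normalisation, 8 with the authors' values) and 1 higher, with a median of -0.27. Of all genes 24.6% were called lower, and of the highest bin by signal in KO controls 51.5%. The factors were not compared with genes of like signal, so a fall particular to them is not shown. Klf15, a factor for amino acid and glucose metabolism in fasting, fell 2.22-fold (-1.15 ± 0.19, adjusted p = 5.83e-05). Mlxipl, the carbohydrate response factor ChREBP, fell by 0.78 ± 0.12, with its 3 tested probes at -0.98 to -0.16, and Ppara, the fatty acid receptor, by 0.74 ± 0.17. Nr0b2, the repressor SHP, fell by 1.35 ± 0.39 with overlapping groups. Cebpa fell by 0.56 ± 0.11 and Foxa2 by 0.67 ± 0.20. Hnf4a, the nuclear receptor at the centre of this network, read 6.95, 7.12 and 7.23 in KO controls and 6.53, 6.68 and 7.28 in KO FB1 mice. The highest of these, replicate 3, lay above every control. Its difference of -0.34 ± 0.13 (adjusted p = 0.0455) was called here, but not after quantile normalisation, with the authors' values or with slide as a block. The call of Hnf4a held in 10 of 27 alternative settings. It was lost on leaving out any single 1 of KO control replicates 1 to 5 or KO FB1 replicates 1, 2, 4, 5 and 6. Foxa3 was the factor called higher (0.51 ± 0.19, adjusted p = 0.038), a call lost on leaving out any of 7 single arrays.

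Genes of both ends of the lobule were among those that fell. Of 18 pericentral genes 10 were called lower and 0 higher, with a median of -0.65, and of 19 periportal genes 12 were lower and 1 higher, with a median of -0.47. Slc1a2, the glutamate carrier of the cells around the central vein, read 2.44, 2.57 and 2.95 in KO controls and -4.28, -2.63 and -1.18 in KO FB1 mice. The groups did not overlap, with replicate 2 lowest, and Slc1a2 fell 37.6-fold (-5.23 ± 0.46, adjusted p = 3.9e-08). Oat, ornithine aminotransferase, fell 6.61-fold from 7.48 to 8.09 down to 3.97 to 5.75 (probe at chromosome 7, 139749183 to 139749242, mm9). The organic cation carrier Slc22a3 fell 7.34-fold and the histidine phosphatase Lhpp 3.80-fold. For Wnt signalling, the pathway that maintains this zone, 3 common reporters were without a call, and they were picked after their values were seen. Axin2 was at 0.39 ± 0.34, Lgr5 at 0.26 ± 0.24 and Rnf43 at 0.42 ± 0.22. Lgr5 was called higher in 1 of 27 alternative settings and Rnf43 in 2 of 27. Whether Wnt signalling changed was not tested. At the portal end the called rise was Cdh1, E-cadherin, at 1.27 ± 0.27.

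Genes that differ between the sexes moved in both directions. Of 20 genes higher in female than in male liver, 12 were called lower and 1 higher, with a median of -0.92. Sult3a1, a sulfotransferase, read 7.63, 7.70 and 8.02 in KO controls and -1.13, 0.50 and 1.75 in KO FB1 mice, on a probe at chromosome 10, 33599244 to 33599303 (mm9). Every KO FB1 mouse lay far below every control, the fall was 151-fold (-7.23 ± 0.29, adjusted p = 1.61e-13), and WT FB1 mice read 7.24 to 8.05. The related Sult3a2 and Sult2a7 fell 118-fold and 70.7-fold, and Cyp3a44 fell 7.92-fold. These genes have close copies that a probe may not separate. Ntrk2 was the female-biased gene that rose (2.14 ± 0.37). Of 19 male-biased genes 9 were lower and 6 higher, with Susd4 down 8.04-fold and the complement gene C6 up 6.91-fold. C6 and Ntrk2 had lower medians in KO controls (-2.44 and -1.96) than in WT controls (-0.22 and -0.66). Their KO FB1 medians were 0.24 and 0.32. Susd4 and Sult2a7 had higher medians in KO controls (2.60 and 2.32) than in WT controls (-0.63 and -0.34). The KO FB1 medians of Susd4 and Sult2a7 were -0.45 and -3.91. Cyp3a44 had a lower median in KO controls (2.84) than in WT controls (4.75).

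**Figure D2:**
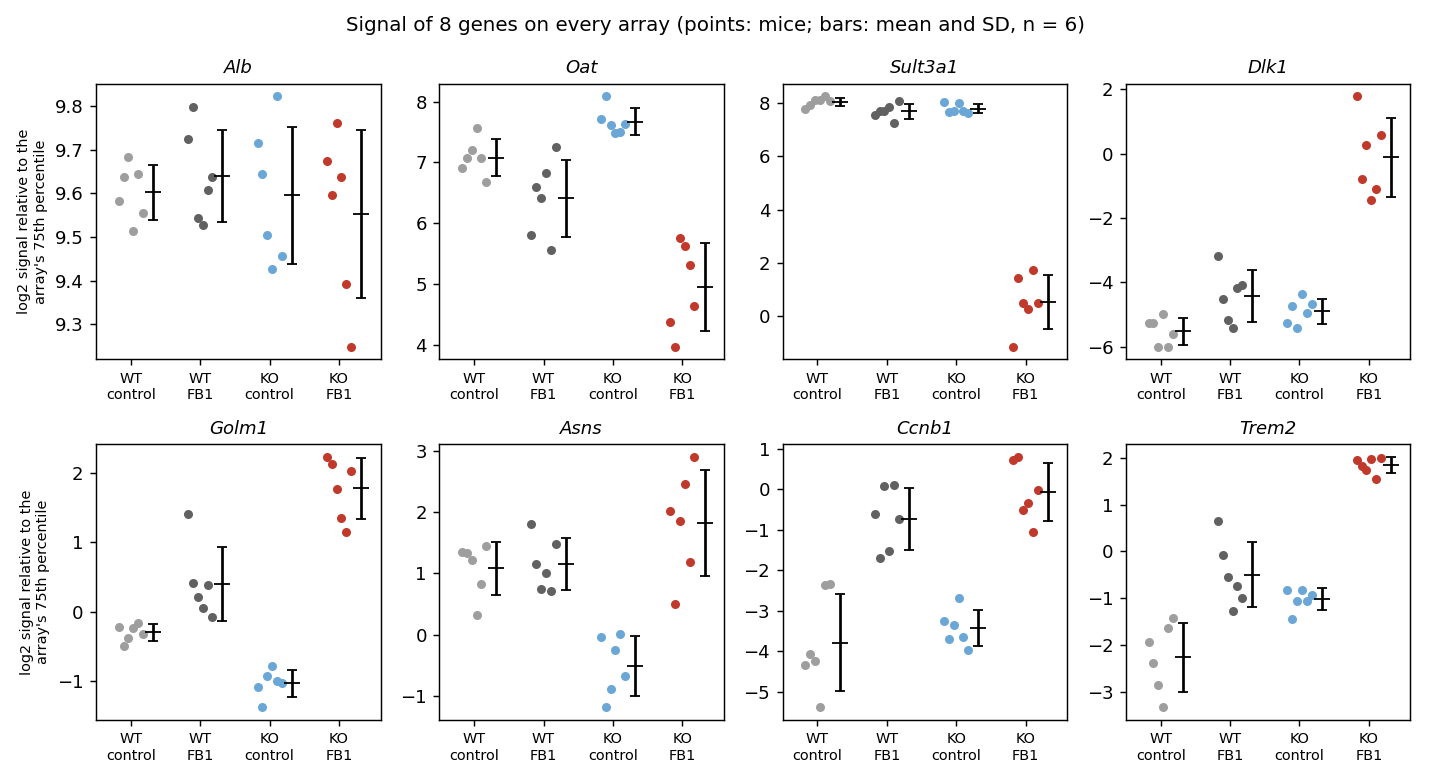
Signal of 8 genes on all 24 arrays, as log2 relative to the array's 75th percentile, with 1 point per mouse and the mean and SD of each group of 6. Alb overlaps between all groups, while the KO FB1 mice stand clear of the KO controls for Oat, Sult3a1, Dlk1, Golm1, Asns, Ccnb1 and Trem2.

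Genes of fetal liver rose in part. Of 26 tested fetal and oncofetal genes, 13 were called higher (9 with the authors' values) and 2 lower, with a median of 0.49. Of all genes 16.5% were called higher. With probes required to be well above background on all 12 KO arrays, 10 of the fetal genes were called higher. The imprinted ligand Dlk1 read -5.43, -4.85 and -4.35 in KO controls and -1.43, -0.26 and 1.79 in KO FB1 mice. All KO FB1 mice lay above all controls, with replicate 1 highest, and the rise was 27.8-fold (4.79 ± 0.43, adjusted p = 4.46e-08). Its other tested probe gave a smaller rise of 2.35 on the log2 scale. The imprinted non-coding RNA H19 read -1.51, -0.65 and 0.57 and then 1.41, 4.01 and 6.48, a 22.2-fold rise without overlap, with replicate 5 lowest and replicate 1 highest. WT controls read lower than KO controls, at -4.15 to -2.38. Tff3, a secreted trefoil peptide, rose by 4.03 ± 0.49. With dim arrays raised to their floor it rose by 3.84, since it was well above background on 3 KO control arrays. Its KO controls, at -6.56 to -4.76, lay below WT controls, at -3.61 to -2.27. The KO FB1 median of Tff3 was -1.93 and the WT FB1 median -1.62.

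Afp, α-fetoprotein, rose less, by 2.65-fold (1.41 ± 0.24, adjusted p = 9.74e-05), and its groups overlapped. It read -2.22, -1.79 and -1.16 in KO controls and -1.46, -0.13 and 0.26 in KO FB1 mice, with replicate 5 lowest. Gpc3, the glypican of fetal liver and liver tumours, was called higher (0.95 ± 0.27), and Spink1, a trypsin inhibitor, rose by 2.40 ± 0.36 (2.05 with dim arrays at the floor). Cdkn1c, an imprinted cell cycle inhibitor, was called lower (-0.44 ± 0.14), a call lost without KO FB1 replicate 5. Of 20 genes of bile duct and progenitor cells, 6 were higher and 0 lower. Elf3, an epithelial factor, rose by 2.85 ± 0.47, Sox9, a factor of ducts and periportal progenitors, by 1.89 ± 0.27 (0.77 on its other probe) and Sox4 by 1.36 ± 0.23. The defining duct markers did not follow as a group, with 2 of 9 tested cholangiocyte markers higher and 1 lower, 4 higher without KO control replicate 4, and a summed signal of 7.07 to 8.66 in KO controls and 6.58 to 7.91 in KO FB1 mice.

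For some enzymes and carriers the adult liver form fell while a paralogue rose. Of 21 pairs of an adult liver form and a paralogue, 6 had the adult form called lower and the other higher. The 3 of these described here were Pygl with Pygb, Pfkl with Pfkp and Slc38a3 with Slc38a1. The liver phosphorylase Pygl fell by 0.37 ± 0.08, a call lost with the authors' values, while Pygb rose 3.06-fold (1.62 ± 0.21). The phosphofructokinase Pfkl fell by 0.38 ± 0.06, a call lost when its probes were averaged, and Pfkp rose by 0.87 ± 0.10. The glutamine carrier Slc38a3 fell by 0.63 ± 0.12 and Slc38a1 rose by 0.65 ± 0.15. In 3 pairs the other form rose without a call for the adult one, Pkm (0.65 ± 0.17) among them. In 1 pair the other form fell, Aldoc by 0.93 ± 0.12, and Mat2a was at 0.06 ± 0.11 while Mat1a fell. The levels of a pair's members were not compared with each other.

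**Figure D3:**
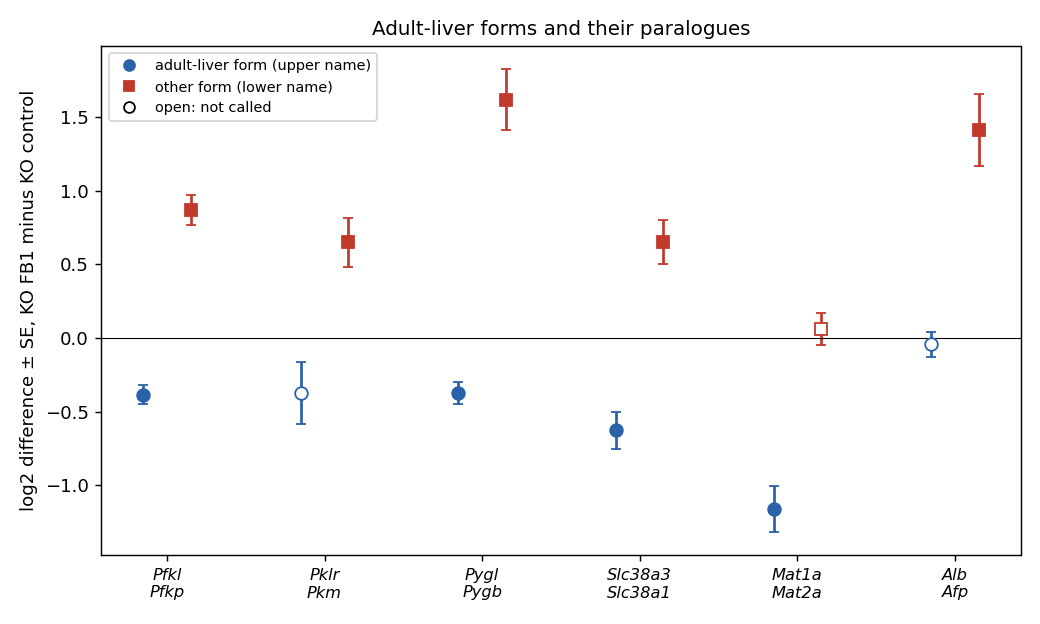
Log2 difference between KO FB1 and KO control with its standard error for 6 pairs of an adult liver form (circles) and a paralogue (squares), with open symbols for genes not called. For Pfkl, Pygl and Slc38a3 the circle is called below 0 and the square of the paralogue above it, and Mat2a and Alb are open symbols near 0.

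Markers of hepatocyte injury rose in part. Of 23 tested, 13 were called higher and 0 lower, with a median of 0.85. The lowest member was at -0.90, without a call. Their summed signal did not separate the groups, at 420 to 1258 in KO controls and 538 to 1046 in KO FB1 mice. Ly6d, a surface protein of epithelial progenitors, read -2.13, -1.30 and -0.10 in KO controls and 3.04, 4.54 and 5.55 in KO FB1 mice, a 53.8-fold rise (5.75 ± 0.61, adjusted p = 3.44e-07) and the largest called rise by log2 difference over all genes. Golm1, a Golgi protein found in serum in liver disease, read -1.37, -1.01 and -0.78 and then 1.15, 1.90 and 2.23. It rose 6.97-fold (2.80 ± 0.20, adjusted p = 3.76e-09). Its KO controls started below WT controls, which read -0.49 to -0.15. Lgals3, galectin 3, rose 3.82-fold. Tnfrsf12a, the receptor of the cytokine TWEAK, rose 3.65-fold, from 0.62 to 1.97 in KO controls to 1.82 to 3.58, and only KO FB1 replicate 3 lay within the control range.

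Cell shape genes rose along with them. Of 29 keratin, actin and cell shape genes 20 were higher and 2 lower, with a median of 0.54, and for 14 of them all KO FB1 mice lay above all KO controls, against 8.89% of all genes. The small GTPase Rhoc rose 3.14-fold, the actin-capping protein Capg by 1.32 ± 0.16, the actin-binding Tagln2 2.32-fold and the keratin Krt8 2.16-fold. Tpm1, a tropomyosin, was called lower on its brightest probe (-0.58 ± 0.09) while its 3 other tested probes gave 1.14 to 1.31, so the probes disagree in sign. Among 22 YAP and TEAD targets 7 were higher and 2 lower, with Tgfb2 at 1.26 ± 0.16, the receptor kinase Axl at 1.02 ± 0.17 and Amotl2, a feedback inhibitor of YAP, at -0.70 ± 0.13. Of 27 adhesion genes 8 were higher and 3 lower, against 16.5% and 24.6% of all genes. Cd63 rose 3.29-fold and the hyaluronan receptor Cd44 2.22-fold, while Gjb1, the main connexin of hepatocytes, fell by 0.59 ± 0.07. The median of Cd44 was -1.65 in KO controls, -0.45 in KO FB1 mice and -0.26 in WT controls.

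Genes of the integrated stress response moved in both directions. Of 21 tested genes 10 were called higher and 2 lower, with a median of 0.12. Asns, asparagine synthetase, read -1.19, -0.46 and 0.02 in KO controls and 0.51, 1.93 and 2.90 in KO FB1 mice, without overlap, and rose 5.01-fold (2.32 ± 0.32, adjusted p = 6.83e-06). WT controls read 0.32, 1.28 and 1.45, so the KO controls lay below all WT controls, and 4 of the KO FB1 mice lay above them. The serine synthesis enzymes Phgdh and Psat1 rose by 1.49 ± 0.21 and 1.42 ± 0.22, and Mthfd2, of mitochondrial folate metabolism, by 1.28 ± 0.20. Atf4, the factor that drives this response, was at -0.02 ± 0.14, although it is controlled largely at translation, and its target Trib3 was at -0.0016 ± 0.25, both without a call. Shmt2 fell by 0.56 ± 0.08 and Vldlr, a lipoprotein receptor, by 2.30 ± 0.29.

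Of 30 genes of apoptosis, necroptosis and pyroptosis 7 were higher and 5 lower, with a median of 0.05, which is near the shares of all genes (16.5% higher and 24.6% lower). Mlkl, the executor of necroptosis, rose 2.46-fold (1.30 ± 0.19, adjusted p = 1.53e-05) and the pore former Bak1 by 0.58 ± 0.12, while Casp6 fell by 0.54 ± 0.11 and the cytokine Il18 by 0.80 ± 0.10. Of 22 p53 targets 11 were higher and 2 lower. Psrc1, which binds microtubules, rose 8.24-fold, Ddit4l, an inhibitor of mTOR signalling, 3.48-fold and Phlda3, an inhibitor of AKT, 3.42-fold, and the antioxidant regulator Sesn1 fell by 0.39 ± 0.11. Cdkn1a, the p21 inhibitor and a common readout of p53, spanned 2.49 to 3.75 in KO controls and 2.66 to 3.81 in KO FB1 mice and was not called (0.14 ± 0.31, adjusted p = 0.747). Among 23 antioxidant genes 8 rose and 6 fell, with a median of -0.037, against the same 16.5% and 24.6% of all genes. The glutathione peroxidases Gpx2 and Gpx3 rose by 1.92 ± 0.22 and 1.44 ± 0.13 and Osgin1, a target of NRF2, by 1.74 ± 0.33, while the mitochondrial superoxide dismutase Sod2 fell by 0.72 ± 0.09.

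Early genes of regeneration rose in part. Of 23 immediate early genes 12 were higher and 2 lower, with a median of 0.61. Egr1 rose 3.51-fold and Atf3 4.16-fold, and the phosphatase Dusp1 and the RNA-binding protein Zfp36, which end such responses, fell by 0.88 ± 0.28 and 0.77 ± 0.23. Of 39 growth factor and receptor genes 14 were higher and 8 lower, against 16.5% and 24.6% of all genes. The EGF receptor ligands Ereg and Btc rose by 2.12 ± 0.42 (1.78 with dim arrays at the floor) and 1.57 ± 0.20, oncostatin M, Osm, rose by 1.12 ± 0.26, and Lifr, the receptor of leukaemia inhibitory factor, fell by 0.81 ± 0.26.

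Cell cycle genes rose in G1, replication and mitosis lists. Of 24 regulators of G1, 13 were higher and 3 lower. Ccnd1, the cyclin of G1, read 1.86, 2.76 and 3.02 in KO controls and 4.36, 4.55 and 4.89 in KO FB1 mice, without overlap. Ccne1 rose 4.22-fold (2.08 ± 0.26), Myc 2.72-fold and the S phase factor E2f1 2.64-fold, and Rbl2, a repressor of resting cells, fell by 0.67 ± 0.16. Of 31 DNA replication genes 22 were higher and 2 lower, with a median of 0.69. Uhrf1, which carries methylation through replication, rose 3.71-fold and the helicase subunit Mcm6 3.08-fold. The exceptions were Tk1, thymidine kinase, at -1.01 ± 0.19, with its 2 other tested probes at -1.01 and -0.92, and Mcm10, at -1.14 ± 0.21, with its other probe at -0.15.

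Of 28 genes of mitosis and cytokinesis 27 were higher and 0 lower, with a median of 2.59. With probes required to be well above background on all 12 KO arrays, 22 were called higher. Within slides 1, 2 and 3 the median was 2.59, 2.33 and 2.84. Ccnb1, cyclin B1, read -3.96, -3.50 and -2.67 in KO controls and -1.04, -0.18 and 0.80 in KO FB1 mice, a 10.3-fold rise, and Cdc20 rose 15.2-fold. Mki67, the proliferation antigen, rose 4.36-fold (2.13 ± 0.36), from -0.55 to 0.13 up to 0.70 to 2.45. The lone member without a call was Kif23, at 0.03.

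The FB1 effects in KO and WT livers were compared gene by gene, with no test of 1 list against another. The test of their difference called 9.3% of all genes, 985 (4.46%) of them with a higher effect in KO and 1070 (4.84%) with a lower one. For mitosis it called 0 of 28 genes, and 26 of the 28 were also called higher in WT, with a median of 2.12, against 2.06% of all genes called higher in WT. Of 31 replication genes it called 1, Tk1. For amino acid catabolism it called 15 of 30, all with the lower effect in KO, and in WT 1 of the 30 was called lower, against 0.824% of all genes. It called 8 of 23 injury markers, all with the higher effect in KO. It called 6 of 26 fetal genes and 7 of 21 stress response genes with the higher effect in KO, and 8 of 18 pericentral genes with the lower effect. Sult3a1 differed by -6.88 (adjusted p = 8.02e-10), Golm1 by 2.11 and Asns by 2.26, whereas Cdc20 differed by 0.67 ± 0.69 and Ccnb1 by 0.30 ± 0.64, without a call and with wide errors. A missing call does not show that the effects are equal.

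**Figure D4:**
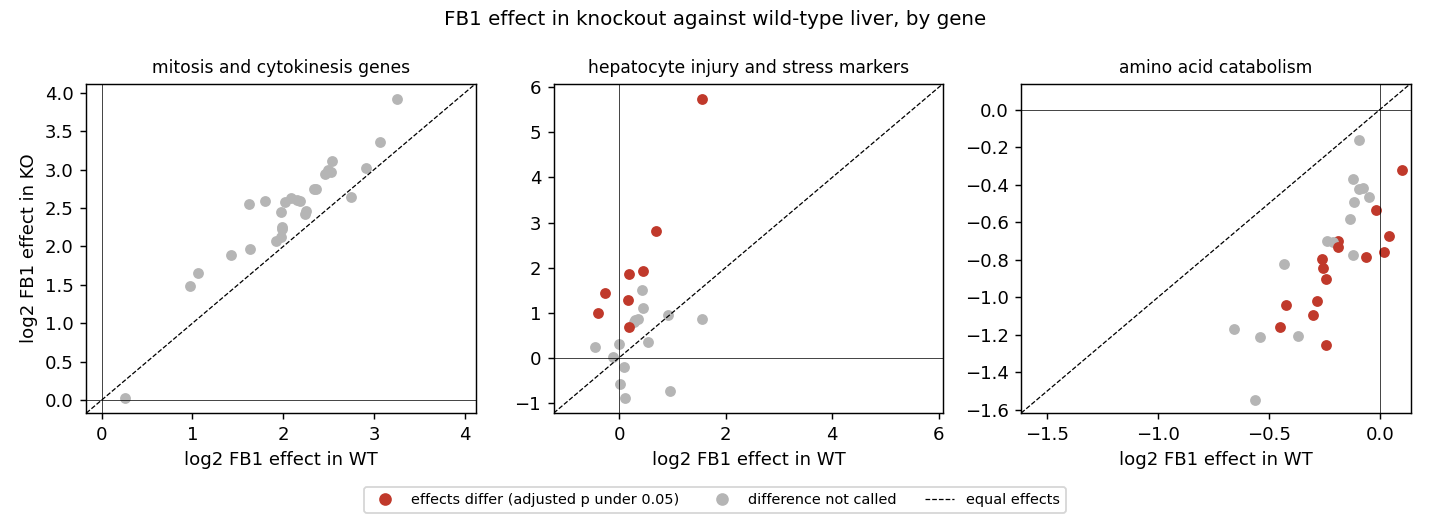
FB1 effect in KO against FB1 effect in WT, both as log2 differences, for each tested gene of 3 lists, with the line of equal effects and with genes in red where the effects differ at adjusted p under 0.05. Most mitosis genes lie a little above the line, with 0 of 28 called, while 8 of 23 injury markers are in red above it and 15 of 30 amino acid genes in red below it.

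The KO FB1 mice differed in how far they had moved, and not in the same order for each group of genes. Relative to the KO control mean, the median of amino acid catabolism was -0.28 in replicate 3 and -0.58 to -0.97 in the others. For the urea cycle replicate 3 was at -0.18 against -0.57 to -0.93, and for mitochondrial respiration at -0.056 against -0.26 to -0.52. Replicate 3 also had the lowest median of the immediate early genes, at 0.13, and the second lowest of mitosis (2.22), injury (0.53), fetal (0.35) and cell shape genes (0.35). For the female-biased genes it lay farthest from the controls, at -1.33. Replicate 5 had the smallest rise in mitosis (1.66) and lay at 0.086 for DNA replication, where the others lay at 0.68 to 0.89, yet its amino acid median was -0.83. Replicates 1 and 2 had the highest medians for mitosis (3.18 and 3.27) and fetal genes (0.71 and 0.64). Without replicate 3 the genes called numbered 9794, and without replicate 5 they numbered 8962, against 9097 with all mice.

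**Figure D5:**
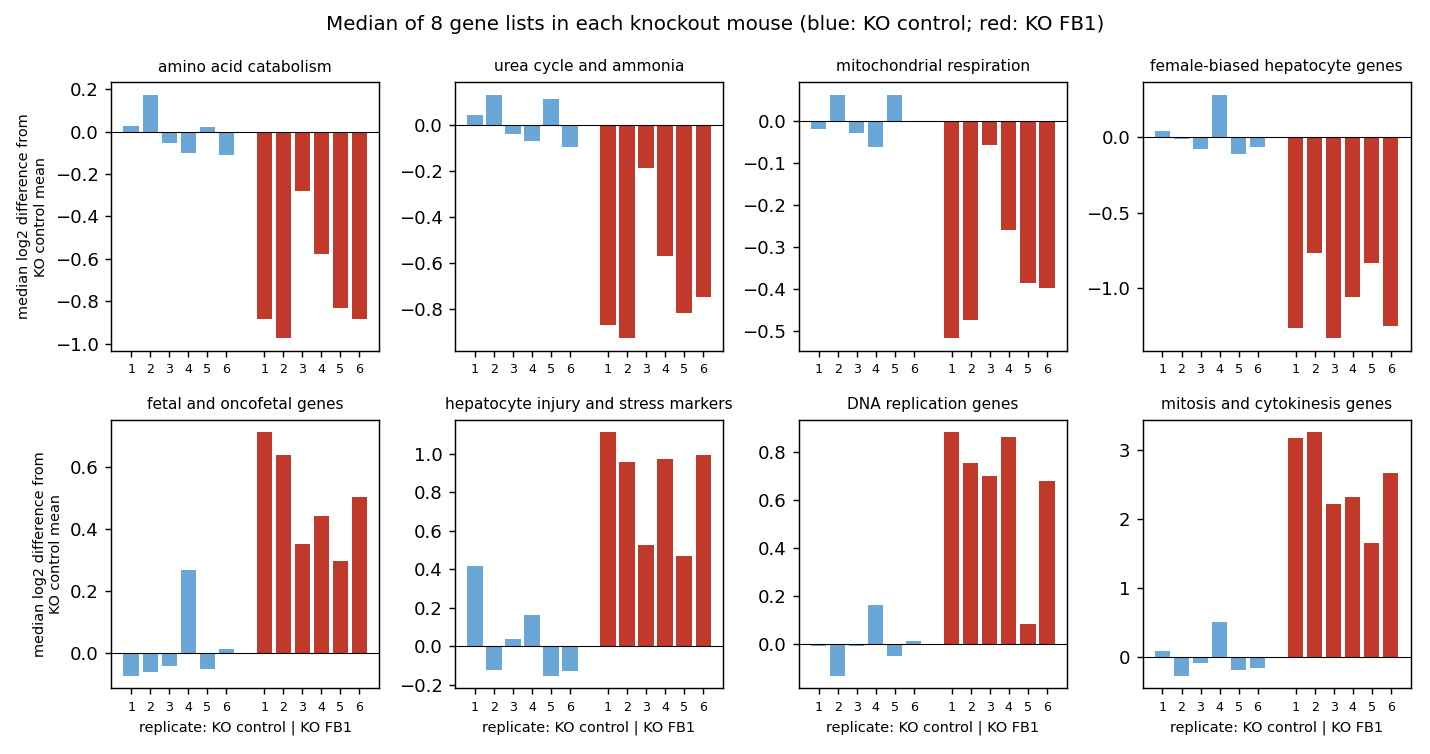
Median log2 difference of 8 gene lists from the KO control mean in each of the 12 KO mice, as bars by replicate number. KO FB1 replicate 3 has the shortest bars for amino acid catabolism, the urea cycle and respiration, and replicate 5 the shortest for DNA replication and mitosis.

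Markers of other cell types moved beside these changes, and their part in them was not tested. Their counts stand beside 16.5% of all genes called higher and 24.6% called lower. Recruited macrophage markers were higher for 8 of 12 genes and lower in 0, with a summed signal of 18.7 to 28.4 in KO controls and 37.3 to 48.5 in KO FB1 mice. Trem2, a lipid receptor of such cells, rose 7.30-fold and the macrophage elastase Mmp12 5.99-fold (1.86 to 2.60 on the log2 scale over its 3 probes). Stellate cell and fibroblast markers were higher for 8 of 12 genes and lower in 0, with sums of 88.8 to 108 and 129 to 158, and the collagen chain Col1a1 rose 6.75-fold. Sinusoidal endothelium markers were lower for 9 of 12 genes, with sums of 56.7 to 87.4 and 37.1 to 51.8, and the scavenger receptor Stab2 fell by 0.94 ± 0.13, with its 5 tested probes at -0.97 to -0.08. Among 12 resident macrophage markers 3 were higher and 2 lower, with Cd163 down 4.43-fold on the probe used (-2.15) and at -0.40 on its other probe. B and plasma cell markers were higher for 5 of 7 genes and lower in 0, with a median of 0.67 and overlapping sums of 45.7 to 56.9 and 51.4 to 64.6. Neutrophil markers were higher for 1 of 12 genes and lower for 1, T and NK cell markers for 1 and 1 of 8, and erythroid markers for 0 and 1 of 7. Of 6 tested markers of pancreas, adipose and other tissues 1 was higher and 3 were lower, with sums of 38.8 to 52.9 and 18.8 to 24.6. Of these markers Cela1 fell 2.82-fold on the probe used, while its other tested probe gave 0.14, so its probes disagree in sign. The sums hold Cela1 through the probe used only. Hepatocyte markers were lower for 9 of 15 genes (4 with the authors' values) and higher in 0. Each tested marker of these lists was well above background in at least 1 KO array.

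The remaining extremes lie outside these programmes. Cib3, a calcium- and integrin-binding protein, read -5.64, -3.77 and -3.52 in KO controls and -1.58, 1.06 and 3.23 in KO FB1 mice, a 32.1-fold rise without overlap. Rab44, a large Rab GTPase, rose 15.8-fold, and by 3.30 on the log2 scale on its other probe. Inava, an innate immune activator, rose by 4.75 ± 0.52 and Hpca, a calcium sensor of neurons, 16.0-fold, with 2 and 1 KO control arrays well above background. With dim arrays raised to their floor these rises were 4.42 and 3.47 on the log2 scale. The transcript named BB345836 was not well above background on any KO control array and rose at least 7.80-fold. At the other end, Wif1, a secreted Wnt inhibitor, was well above background on all 6 KO control arrays and on 0 KO FB1 arrays, a fall of at least 5.66-fold, and the transcription factor Irx1 fell at least 4.35-fold in the same way. A non-coding transcript read on chromosome 2 at 173114879 to 173114938 (mm9) fell at least 11.8-fold, and C430042M11Rik at least 5.17-fold. These bounds set each dim array to the higher of its own signal and the lowest signal well above background on that array. The ceramide synthase gene Cers2, which encodes the main ceramide synthase of hepatocytes and a direct target of the toxin, read 3.49 to 4.08 in KO controls and 3.03 to 3.39 in KO FB1 mice and fell by 0.57 ± 0.10 (adjusted p = 9.61e-05).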

How the data were processed

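Liver RNA of 24 mice was read on 1-colour Agilent arrays, and the deposited intensity values came from Agilent Feature Extraction 10.10.1.1, per the file headers. The authors' deposited values are normalised and were used as log2, only as an alternative, with scaling and centring unknown. The submitters' processing notes name limma without a version. Processed signals were taken as log2 minus each array's 75th percentile over non-control probes, and outlier spots were set to missing. Tested probes had a signal well above background on every array of 1 or more groups and at least 4 values in each group. A gene is its tested probe with the highest mean over 24 arrays. Of 56605 non-control probes 58.3% were named through RefSeq and the rest keep the array's name, and probe positions are mm9.

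Group means were fitted with limma 3.58.1 (R 4.3.3) over 24 arrays, and figures were drawn with matplotlib 3.10.9 (Python 3.11.15). On simulated data the fit recovered 54 of 100 genes changed by 0.5 and 84 of 100 changed by 1 on the log2 scale, with 6 false calls. The simulation changed 200 of 22033 genes with independent noise, whereas 41.2% of genes were called here. Its recovery and false calls therefore do not carry over to this comparison. The number of arrays limits the precision. Members and lists were chosen with earlier results of these data known. Named genes are the 10 largest called rises and falls, the 4 largest called members of each list with up to 2 against its direction (or the member with the smallest p where none was called), the pairs, and Nr1h3, Nr1h2, Cers2, Hnf4a, Alb, Afp, Cdkn1a, Ccnd1 and Mki67. Apoa1, Atf4, Axin2, Bhmt, Cebpa, Foxa2, Gpc3, Kif23, Lgr5, Lhpp, Mthfd2, Psat1, Rnf43, Slco1b2, Trib3 and Ttr were added after their values were seen. Some members of the lists are not reported here by name. Alternatives were other scalings, backgrounds, filters, probe rules, blocks and left-out arrays.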

Additional observations from a re-analysis of the deposited data

Results flagged for a closer look

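Among 310 groups of 6 arrays examined for 155 named genes, 13 held a mouse whose gap to its nearest neighbour exceeded 0.625 of the group's range, where chance gives about 1 in 20. The log2 signals concerned were Nr1h3 in KO FB1 replicate 6 (-2.56), Mki67 in KO control replicate 4 (0.13), Rab44 in KO control replicate 2 (-5.66), Wif1 in KO FB1 replicate 5 (-6.90) and Foxa2 in KO FB1 replicate 3 (1.68). Others were Oat in KO control replicate 2 (8.09), Amotl2 in KO control replicate 1 (0.68), Rbl2 in KO control replicate 2 (-0.28), Uhrf1 in KO control replicate 4 (-1.54) and Mcm6 in KO FB1 replicate 5 (2.16). The remaining ones were Ereg in KO control replicate 2 (-8.05), Stab2 in KO FB1 replicate 1 (2.51) and Pygb in KO FB1 replicate 5 (-1.60). Among 84 groups examined for list medians, 6 held such a mouse. These were the median of fetal and oncofetal genes in KO control replicate 4 (0.27), median of DNA replication genes in KO FB1 replicate 5 (0.086) and median of p53 target genes in KO control replicate 1 (0.11). The others were the median of lysosome and autophagy genes in KO FB1 replicate 1 (-0.12), median of erythroid markers in KO FB1 replicate 2 (-0.83) and median of pancreas, adipose and other tissue markers in KO FB1 replicate 6 (-0.87). KO control replicate 4 and KO FB1 replicate 5 appear for several cell cycle results, and Rbl2, Oat, Rab44 and Ereg share KO control replicate 2.

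For 79 named genes the FB1 effect differed between genotypes in limma at adjusted p under 0.05, and the values are the KO effect minus the WT effect on the log2 scale. The effect was higher in KO for BB345836 (4.83), Cib3 (4.79), Ly6d (4.19), Dlk1 (3.70), H19 (3.52), Hpca (3.29), Inava (3.02), C6 (2.73), Rab44 (2.67), Tff3 (2.67) and Spink1 (2.53). It was also higher for Ereg (2.30), Elf3 (2.26), Asns (2.26), Golm1 (2.11), Ntrk2 (1.80), Gpx2 (1.71), Tnfrsf12a (1.68), Pygb (1.49), Lgals3 (1.48), Gpx3 (1.31) and Mthfd2 (1.30). Smaller positive differences were those of Btc (1.26), Abcc4 (1.22), Rhoc (1.20), Afp (1.20), Cd63 (1.18), Ddit4l (1.08), Psat1 (1.04), Phlda3 (0.84), Tgfb2 (0.80), Pfkp (0.78) and Axl (0.78). The least positive were those of Ephx1 (0.51) and Aldoa (0.51). The effect was lower in KO for Sult3a1 (-6.88), Sult3a2 (-6.36), the chromosome 2 non-coding transcript (-4.54), C430042M11Rik (-4.36), Slc1a2 (-3.89), Sult2a7 (-3.61), Cyp3a44 (-2.79), Wif1 (-2.74), 4930435C17Rik (-2.32), Cd163 (-2.08) and Oat (-2.05). It was also lower for Cela1 (-1.84), Lhpp (-1.67), Cyp7b1 (-1.53), Glul (-1.40), Abcg8 (-1.33), Tk1 (-1.32), Abcg5 (-1.17), Serpina6 (-1.04), Prodh (-1.01), Car5a (-0.97) and Cyp1a2 (-0.91). Smaller negative differences were those of Maob (-0.80), F7 (-0.76), Il18 (-0.75), Pecr (-0.73), Stab2 (-0.71), Gls2 (-0.71), Mat1a (-0.71), Cat (-0.70), Cebpa (-0.69), Aldoc (-0.59) and Mlxipl (-0.58). These were followed by Slc38a3 (-0.57), Sod2 (-0.56), Slco1b2 (-0.56), Tpm1 (-0.56), Casp6 (-0.53), Plg (-0.51), Gjb1 (-0.48), Cers2 (-0.47), Atg5 (-0.44), Sdhb (-0.41) and Pfkl (-0.31). Wif1 read -7.33 to -4.58 in WT controls and -4.19 to -2.54 in KO controls. Under FB1 it read -8.02 to -7.40 in WT and -8.15 to -6.90 in KO. It thus had less room to fall in WT, where limma also called it lower (-1.73 ± 0.37, adjusted p = 0.00797).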

How the results depend on the processing

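Of 143 named genes that were called, 135 kept the call and its direction in every setting that tested them, single slides and the KO arrays alone set aside. Not every gene was tested in all 27 settings. Dlk1 and Wif1 were tested in 26 and Spink1 in 25. The genes called in all numbered 8907 after quantile normalisation, 8199 with the authors' values and 8946 with the KO arrays alone. Leaving out 1 KO array gave 7976 to 9794 genes called, 3275 to 3768 higher and 4701 to 6026 lower. With the authors' values 6 plasma protein genes and 8 respiration genes were lower, and the cause was not tested. At a 1.5-fold threshold 3737 genes were called, 2101 higher and 1636 lower. Tpm1 turned to 1.24 with the authors' values and to 0.77 with its probes averaged, where its other probes enter.

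A single slide leaves 2 mice a group. Slide 1 alone called 1971 genes (1079 higher, 892 lower), slide 2 alone 305 (214 higher, 91 lower) and slide 3 alone 4905 (2176 higher, 2729 lower). On slide 1 alone the members lower were 2 transcription factors, 2 plasma proteins and 6 respiration genes, and those higher were 4 fetal, 14 mitosis, 5 injury and 1 stress response genes. On slide 2 alone 0 transcription factors, 0 plasma proteins, 0 urea cycle, 0 amino acid and 0 respiration genes and 1 pericentral gene were lower, while 5 fetal, 11 mitosis, 3 injury and 1 stress response genes were higher. Slide 2 holds KO FB1 replicate 3, and Hnf4a was at 0.025 there. On slide 3 alone 17 respiration genes were lower.

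The replicate numbers shared by the groups do not pair the samples. Same-numbered mice correlated at -0.17 to 0.058 in their deviations from the group means, and 0 of 6 correlated best with their own number. With the replicate block 8912 genes were called.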
